A study of Mus musculus with 2 samples.

Results

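The 34 genes described here encode the machinery that copies DNA and the regulators that admit a cell from G1 into S phase, and they were taken by name from a fixed list out of the 32285 genes counted in each library. All 34 were found, each under 1 gene identifier. They were measured in 2 libraries of mouse bone marrow cells sorted as CD45.2+ Kit+ at 10 weeks after transplantation, 1 labelled control and 1 labelled Utx-deleted. CD45.2 is the donor form of the leukocyte surface protein CD45, and Kit (CD117) is the receptor that marks blood stem and progenitor cells. UTX is the histone demethylase encoded by Kdm6a. Each library was made by CITE-seq, in which messenger RNA and antibody-bound DNA tags are counted as UMIs (unique molecular identifiers) in the same single cells. The strain, the promoter that drove the deletion, the number of animals and what the pair of hashtag antibodies marked are not given in the sources used here. With 1 library in each group no test between the groups was possible, and every difference below is a difference between these 2 libraries.

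Replication is prepared in G1, when origins bound by the origin recognition complex are loaded with the ring of Mcm2 to Mcm7 by Cdc6 and Cdt1. In S phase Cdc45 and the GINS complex (Gins1 and Gins2 among its subunits) join the ring to form the active helicase, primase and polymerase alpha start each strand, and Pcna clamps the polymerases to DNA. Transcription of most of these genes is held back by the retinoblastoma protein until cyclin D and cyclin E kinases release E2F1 and its relatives, while E2F7 and E2F8 repress the same targets later in the cycle. In the neutrophil lineage, granule proteins are made in sequence: Elane and other primary granule genes in dividing progenitors, then Fcnb and Ltf, and last Retnlg and Mmp8 in cells that have left the cycle.

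The promoters of 29 of the 34 genes were found in the RefSeq table for GRCm38.p6, as 34 promoters because some genes have several start sites. E2F-type letters, searched on either strand as TTCCCGC, with the second variant TTCGCGC, with the third variant TTGGCGC and with the fourth variant TTGCCGC, occurred within 250 bases upstream of the start in 19 of these 34 promoters (55.9%), compared with 7.89% of all 32851 promoters in the table. CCAAT, the box bound by NF-Y, occurred on either strand in 23 of the 34 (67.6%) and in 33.8% of all promoters. By gene, 17 of 29 had at least 1 E2F-type match and 21 of 29 a CCAAT match. A match is a description of the letters and not evidence of a bound site. Stretches of 130 bases upstream of the start are shown for the 6 genes with the lowest and the highest ratios between the libraries in Elane+ progenitors, described below, so that the promoters of genes at opposite ends can be compared. The stretches end at the RefSeq start, except that those of Rrm2 and Ccne1 end 13 and 44 bases before it. They are printed 5′ to 3′ on the strand of the gene, with E2F-type and CCAAT matches in capitals; a CCAAT box read on the other strand appears as ATTGG. The 3 with the lowest ratios are Rrm2 (chr12:24708111-24708240, plus strand), Tyms (chr5:30073626-30073755, minus strand) and E2f8 (chr7:48881597-48881726, minus strand).
Rrm2: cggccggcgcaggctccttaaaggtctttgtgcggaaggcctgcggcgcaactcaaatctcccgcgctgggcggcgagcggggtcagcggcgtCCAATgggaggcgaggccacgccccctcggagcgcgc
Tyms: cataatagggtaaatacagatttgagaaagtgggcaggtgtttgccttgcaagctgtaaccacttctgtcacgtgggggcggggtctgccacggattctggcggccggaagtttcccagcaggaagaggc
E2f8: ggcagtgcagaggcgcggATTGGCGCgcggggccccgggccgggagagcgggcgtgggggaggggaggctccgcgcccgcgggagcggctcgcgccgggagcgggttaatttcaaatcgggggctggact
The 3 with the highest ratios are E2f7 (chr10:110745309-110745438, plus strand), Tcf19 (chr17:35516825-35516954, minus strand) and Ccne1 (chr7:38107535-38107664, minus strand).
E2f7: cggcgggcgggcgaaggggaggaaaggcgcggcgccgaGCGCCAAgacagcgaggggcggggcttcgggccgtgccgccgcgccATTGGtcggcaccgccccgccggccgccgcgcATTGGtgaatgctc
Tcf19: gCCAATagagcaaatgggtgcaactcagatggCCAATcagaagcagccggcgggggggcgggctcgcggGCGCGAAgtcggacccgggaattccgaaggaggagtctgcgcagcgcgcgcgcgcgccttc
Ccne1: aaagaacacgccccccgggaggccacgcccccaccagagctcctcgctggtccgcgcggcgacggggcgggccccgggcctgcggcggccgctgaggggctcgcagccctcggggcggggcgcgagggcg
In E2f8 the ATTGG and the TTGGCGC overlap. Rrm2 had an E2F-type match further upstream, outside the stretch shown. Both kinds of letters were therefore present among the genes with low ratios and among those with high ratios, and Tyms and Ccne1, from opposite ends, had neither.

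The libraries held 7827 (control) and 7883 (Utx-deleted) cell barcodes and 122130256 and 129736034 gene UMIs. After filters 7009 and 7168 cells were kept, with a median of 12379 and 11763 UMIs, and 17 barcodes occurred in both libraries. Kdm6a (chrX:18162575-18279936, plus strand) was not depleted: 11942 and 11686 UMIs, or 110 and 103 UMIs per 1000000 gene UMIs (CPM, the level used throughout). Since 3′ counts are blind to the loss of an exon inside the transcript, the library is called the library labelled Utx-deleted. Cells were placed in stages by marker UMIs, none of them from the 34 genes. Other genes of each stage fitted the gates: Meis1 was at 688 and 797 CPM in Hlf+ Mecom+ stem-like cells, Mpo at 4609 and 4960 in Elane+ progenitors, Camp at 60473 and 62810 in Ltf+ Fcnb+ immature neutrophils and Mmp8 at 4233 and 3399 in Retnlg-high late neutrophils. Kit messenger RNA itself ranged from 303 and 329 CPM in stem-like cells to 33.1 and 23.5 in late neutrophils, so a large part of these cells, sorted as Kit+, carried little of it. The numbers of cells were 467 and 114 stem-like, 608 and 771 Elane+, 794 and 364 Ltf+ Fcnb+, 2956 and 3598 Ltf+ Fcnb-low, and 1402 and 1544 late neutrophils. Flt3+ progenitors (38 and 7 cells), Cpa3+ early myeloid progenitors (71 and 37) and Fcnb+ pre-neutrophils (74 and 9) had under 50 cells in at least 1 library and were not compared. Intervals are 95% and cover counting error only. The cells of each hashtag give a further view of the spread inside a library. Cells that carried both hashtags or neither are in the library totals only, so a total can lie outside its pair of hashtag levels.

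Summed over the 34 genes, the control library had 2248 CPM and the one labelled Utx-deleted 1781 CPM, a log2 ratio of -0.34 (interval -0.34 to -0.33). The control hashtags were at 2346 and 2189 CPM and the others at 1660 and 1894 CPM, so the hashtags of the 2 libraries did not overlap, although the spread between hashtags was wide: the log2 ratio was -0.50 with hashtag 1 and -0.21 with hashtag 2. All 34 genes had ratios below 0, from -0.55 (Tyms, thymidylate synthase) to -0.06 (Ccne1, cyclin E1), with a median of -0.30. Over all 13551 genes tested the median was -0.12 and 71.0% were below 0, so part of the offset was shared by most genes. None of the 34 passed 1.5-fold in either direction, where 3.10% of all genes were called higher and 10.6% lower. With hashtag 1 alone, or with thinned cells, some of them did pass, as counted under the dependence on processing. At 1.25-fold, a threshold added after these values were seen, 16 of 34 were lower and 0 higher, compared with 21.0% lower of all genes. With TMM scaling, which shifts all ratios by 0.128, 32 of 34 stayed below 0 and the summed ratio was -0.21. For 33 of 34 genes both hashtags of the library labelled Utx-deleted lay below both control hashtags, which held for 44.0% of all genes.

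The level of the 34 genes followed the neutrophil stages in both libraries. In the control library the sum was 3405 CPM in stem-like cells, 3074 in Elane+ progenitors, 2862 in Ltf+ Fcnb+ cells, 1267 in Ltf+ Fcnb-low cells and 238 in late neutrophils. In the library labelled Utx-deleted it was 3077, 2555, 2657, 1264 and 239 CPM in the same order. The decline from the earliest to the latest stage was therefore present in both. By library totals, Elane+ progenitors ranked above Ltf+ Fcnb+ cells in the control library and below them in the other. The summed hashtag levels of Ltf+ Fcnb+ cells are not given here, so whether this swap held within each hashtag is not shown. In the library labelled Utx-deleted, the shares of cells rich in these transcripts, defined below, ranked in opposite ways by hashtag. They were 38.7% in Elane+ progenitors and 51.7% in Ltf+ Fcnb+ cells with hashtag 1, and 44.4% and 42.1% with hashtag 2. The log2 ratios by stage were -0.15 (-0.18 to -0.11), -0.27 (-0.28 to -0.25), -0.11 (-0.13 to -0.08), -0.00 (-0.02 to 0.01) and 0.00 (-0.08 to 0.08). The difference was thus largest in Elane+ progenitors among these 5 stages, with hashtag levels of 3114 and 3042 CPM against 2495 and 2610 CPM that did not overlap. In stem-like cells the hashtags were at 3322 and 3508 CPM against 2899 and 3181, also apart. In Ltf+ Fcnb-low cells they were at 1249 and 1252 against 1203 and 1178, so both were below the control hashtags although the library totals were nearly equal. In late neutrophils they were at 233 and 216 against 176 and 254 and overlapped. When each cell was thinned to 2000 UMIs, so that all cells weighed the same, the ratios were -0.06 in stem-like cells, -0.35 in Elane+ progenitors and -0.33 in late neutrophils, and in Ltf+ Fcnb-low cells the alternatives ran from -0.20 to 0.07.

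**Figure D1:**
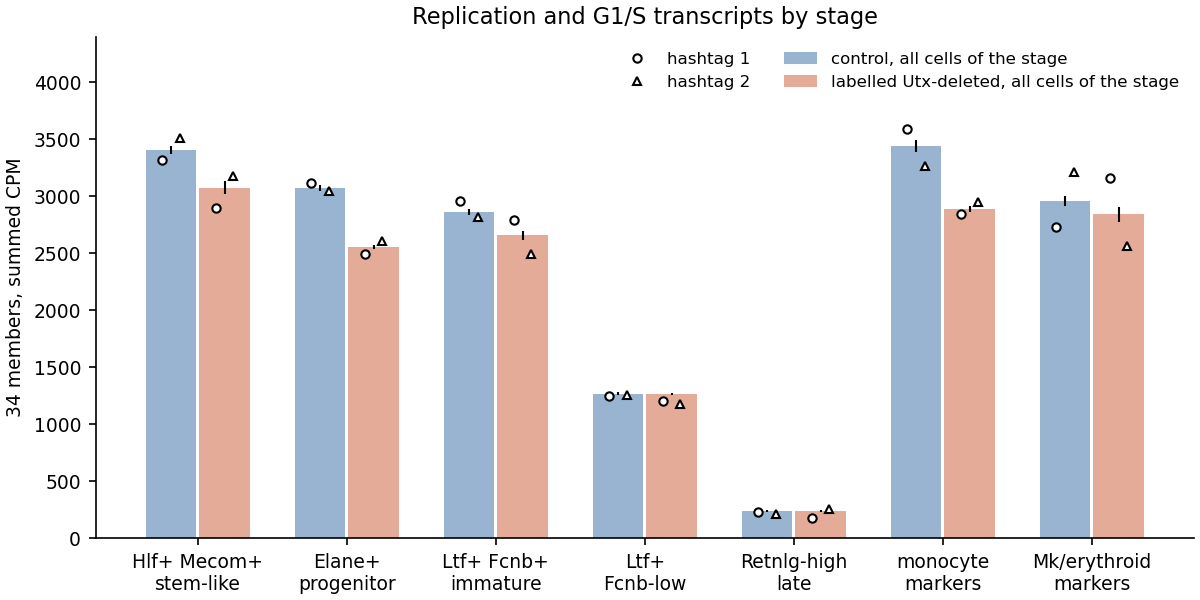
Summed level of the 34 genes (CPM, linear axis from 0) in each compared cell group, for both libraries. Bars are library sums with 95% Poisson intervals and points are the hashtags; the level falls from 3405 CPM in control stem-like cells to 238 CPM in late neutrophils, and the libraries stand furthest apart in Elane+ progenitors (3074 and 2555 CPM) and monocyte-marker cells (3438 and 2890 CPM).

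The libraries also differed in how their UMIs were spread over these stages. Of the UMIs in the 5 stages, stem-like cells held 13.2% in the control library and 3.53% in the other, Ltf+ Fcnb+ cells 14.9% and 6.82%, and Ltf+ Fcnb-low cells 40.1% and 53.4%. With each library's own stage weights the ratio over the 5 stages was -0.39. With the control weights in both libraries it was -0.14 (2073 and 1885 CPM), with the weights of the other library -0.13, and with equal weights -0.15. The ratio at fixed stage weights was therefore smaller than the ratio over all cells. The values within stages below do not contain the difference in these stage shares, but the mix of cells inside a gate can still differ between the libraries. The stem-like stage held 16.6% of all UMIs of the 34 genes in the control library and 5.05% in the other; monocyte-marker cells held 7% and 19.2%.

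In Elane+ progenitors, the dividing cells that make primary granule proteins, 31 of the 34 genes had ratios below 0, with a median of -0.28, when the median over the 10675 genes tested was -0.03 and 54.5% were below 0. None passed 1.5-fold, where 2.89% of all genes were called higher and 4.19% lower. At the added 1.25-fold threshold 7 were lower (Rrm2, Tyms, E2f8, Pcna, Gins1, Chaf1b and Mcm3) and 0 higher, against 10.3% lower and 8.56% higher of all genes. For 30 of 34 genes both hashtags of the library labelled Utx-deleted were below both control hashtags, and for 3 they were above; of all genes 34.3% were below and 24.9% above in this way. The differences were thus small for each gene but in 1 direction for nearly all of them. TMM scaling left 31 of 34 below 0, and the summed ratio was -0.25. In the other stages TMM gave summed ratios of -0.17 in stem-like (27 of 34 below 0), -0.04 in Ltf+ Fcnb+ (21 of 34), 0.06 in Ltf+ Fcnb-low (7 of 34) and 0.07 in late cells (8 of 18).

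By role, the 3 enzymes that supply deoxynucleotides were furthest apart in Elane+ progenitors, at 387 CPM summed in the control library and 284 CPM in the other (log2 ratio -0.45, -0.49 to -0.40). Rrm2, the regulatory subunit of ribonucleotide reductase that accumulates in S phase, was at 147 CPM in the control library (hashtags 146 and 149) and 98.4 CPM in the other (99.3 and 97.6), a ratio of -0.58 (-0.66 to -0.50). Tyms was at 117 CPM (117 and 117) and 84.9 CPM (85.9 and 84.7), a ratio of -0.46 (-0.55 to -0.37). Rrm1, the large subunit of the same reductase, was at 123 and 101 CPM, a ratio of -0.28. For all 3 the hashtags of each library lay close together and apart from those of the other library.

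The 6 genes of origin loading and firing summed to 302 and 247 CPM (-0.29, -0.34 to -0.23), with all 6 below 0. Gins1, a GINS subunit, had the lowest ratio of them, at 34.5 CPM (34.7 and 35.5) and 26.5 CPM (26.9 and 26.4), or -0.38. Cdc6 and Cdt1, the loaders of the Mcm ring, were at 40.5 and 33.0 CPM and at 69.6 and 58.5 CPM, ratios of -0.30 and -0.25. Cdc45, Mcm10 and Gins2 had ratios of -0.31, -0.28 and -0.25. The Mcm2 to Mcm7 ring summed to 918 and 788 CPM (-0.22, -0.25 to -0.19). Its 6 subunits fell in 2 sets of values: Mcm2, Mcm3 and Mcm5 at -0.31, -0.32 and -0.30, and Mcm4, Mcm6 and Mcm7 at -0.16, -0.13 and -0.15. The intervals of Mcm3 (-0.39 to -0.26) and Mcm6 (-0.19 to -0.07), the lowest and highest of the 6, did not overlap. The 2 sets were read from these values, the intervals cover counting error only, and the difference between subunits was not tested. The same order did not hold in every stage, since in Ltf+ Fcnb+ cells Mcm2 was at 0.08 and Mcm5 at -0.23.

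The 7 genes of the polymerase, clamp and lagging strand summed to 849 and 705 CPM (-0.27, -0.30 to -0.24), all 7 below 0. Pcna, the sliding clamp, was at 231 CPM with both control hashtags at 232, and at 178 CPM with hashtags at 175 and 181, a ratio of -0.38 (-0.44 to -0.32). Pola1 and Prim1, which encode the catalytic subunit of polymerase alpha and a primase subunit, were nearer to each other in the libraries at -0.19 and -0.12. Fen1 and Lig1, which trim and join Okazaki fragments, had ratios of -0.27 and -0.32, Rpa2, a subunit of the single-strand binding protein, -0.24, and Exo1, an exonuclease, -0.31. The 6 genes of chromatin assembly, checkpoint and turnover summed to 464 and 391 CPM (-0.25), all 6 below 0. Among them Chaf1b and Chaf1a, subunits of the histone chaperone CAF-1, had ratios of -0.38 and -0.31, Clspn, the mediator of Chk1 activation, -0.31, Uhrf1, which maintains DNA methylation, -0.28, Slbp, which binds replication-dependent histone messenger RNA, -0.19, and Dtl, an adaptor of the ubiquitin ligase that removes Cdt1, -0.17.

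The 6 regulators of the G1/S step did not share 1 direction. E2f8, a repressor, was at 57.4 CPM (58.2 and 54.9) and 43.6 CPM (43.8 and 43.8), a ratio of -0.40 (-0.52 to -0.27), and E2f1, an activator, at 43.7 and 39.0 CPM, or -0.17. E2f7, the closest relative of E2f8, was at 8.85 CPM (9.50 and 7.38) and 10.8 CPM (10.5 and 11.1), a ratio of 0.29 (0.00 to 0.58). Tcf19, a chromatin-binding factor of late G1, was at 5.06 and 6.11 CPM, a ratio of 0.27 (-0.12 to 0.66). Ccne1 was at 11.1 CPM (12.1 and 9.88) and 13.2 CPM (12.2 and 14.0), a ratio of 0.25 (-0.01 to 0.51), and Ccne2 at 28.5 and 26.1 CPM, or -0.13 (-0.30 to 0.05). The 3 genes above 0 rested on 99 to 285 UMIs a library, and the intervals of Tcf19 and Ccne1 included 0.

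**Figure D2:**
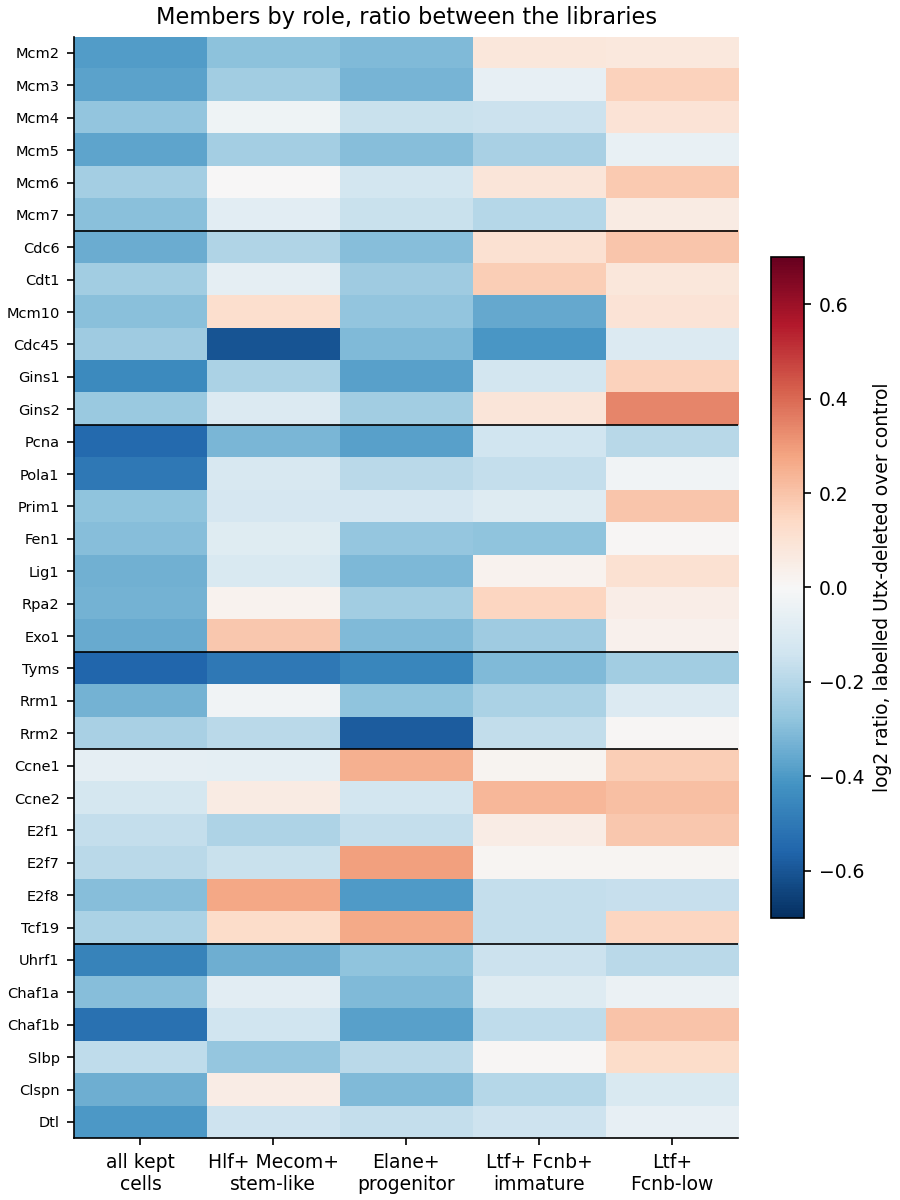
Log2 ratio of the library labelled Utx-deleted over the control library for each of the 34 genes, as colors in rows grouped by role. Columns are all kept cells, stem-like cells, Elane+ progenitors, Ltf+ Fcnb+ cells and Ltf+ Fcnb-low cells. All 34 genes are below 0 over all cells, and 31 of 34 in Elane+ progenitors, where E2f7, Tcf19 and Ccne1 are above 0.

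In Elane+ progenitors the libraries differed in the share of cells rich in these transcripts. Each cell was thinned to 4000 UMIs and called rich at 10 or more UMIs of the 34 genes, a range of a continuous score and not a cell type. Of 602 control cells 392 were rich (65.1%, exact binomial interval 61.2 to 68.9%), and of 766 cells of the other library 322 (42.0%, 38.5 to 45.6%). The hashtags were at 67.0% and 62.6% against 38.7% and 44.4%. Without thinning, at 25 or more per 10000, the shares were 63.5% and 43.3%. Rich cells carried a mean of 15.38 and 15.01 UMIs of the 34 genes and other cells 6.14 and 5.28. Since the same UMIs set the border, these means do not separate a difference in share from one in level. Between 8 and 11 UMIs, near the border, lay 165 (27.4%) and 168 (21.9%) cells. The median depth of the stage was 31243 and 26623 UMIs before thinning. As background, 7 of 1248 (0.561%) and 7 of 1473 (0.475%) late neutrophils were rich, at median depths of 6109 and 7437 UMIs, and 0 of 29 and 1 of 33 T/NK-marker cells.

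Within rich Elane+ cells alone, compared at all their UMIs, most of the genes were close between the libraries. Mcm6 was at 266 and 270 CPM, Mcm7 at 192 and 196, Slbp at 164 and 163 and Cdc45 at 77.0 and 75.8 CPM. Rrm2 was at 179 and 153 CPM (-0.23, -0.32 to -0.13), Tyms at 136 and 121 (-0.18, -0.29 to -0.07) and Pcna at 283 and 263 (-0.11, -0.18 to -0.03). The 3 genes above 0 in the whole stage were further above it here: Tcf19 at 6.77 and 11.1 CPM (0.71, 0.30 to 1.14), E2f7 at 11.9 and 18.8 (0.66, 0.35 to 0.98) and Ccne1 at 15.4 and 22.4 (0.54, 0.26 to 0.82). These cells were chosen by the same UMIs, so the values are a description.

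The difference held across the range of Elane itself. In cells with 10 to 50, 50 to 100 and 100 or more Elane UMIs per 10000 the rich shares of the control library were 68.9%, 67.1% and 60.4%, those of the other 49.4%, 47.5% and 34.1%, and the summed ratios were -0.23, -0.20 and -0.35. Markers of monocytes moved with the library in this stage: F13a1, Ly86 and Csf1r summed to 210 CPM in the control library and 296 CPM in the other, with none of the 3 at 0 in either. The change was in F13a1 (151 and 248 CPM), while Ly86 was at 44.6 and 34.7 and Csf1r at 14.7 and 12.8. Among the Elane+ cells without any F13a1 UMI, a subset chosen after these values were seen, the rich shares were 67.6% (144 of 213) and 42.6% (84 of 197), and the summed level 3207 and 2658 CPM, a ratio of -0.27. These cells were 217 of the 608 and 200 of the 771 Elane+ cells, and the part of the marker difference in the result was not tested.

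**Figure D3:**
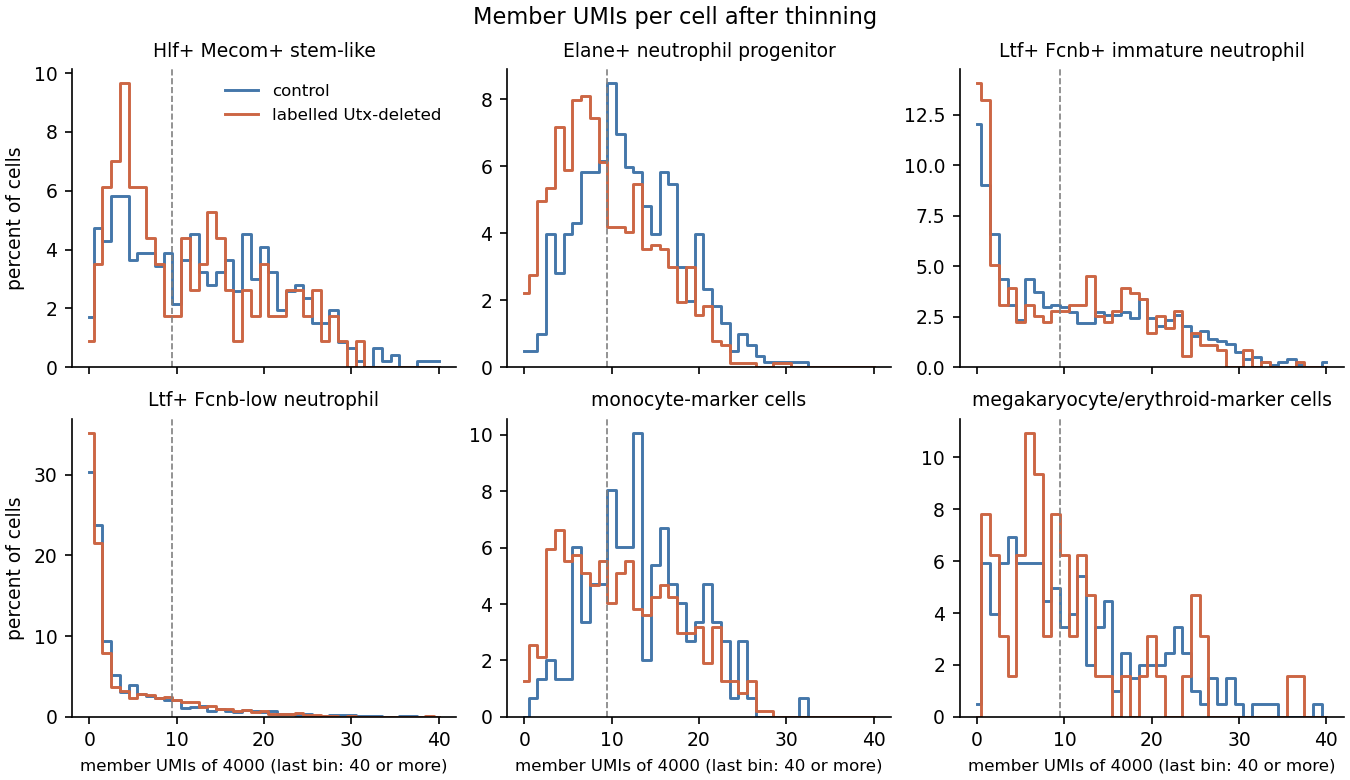
Distribution over cells of the UMIs of the 34 genes after thinning each cell to 4000 UMIs, as percent of cells, for both libraries. Panels are stem-like, Elane+, Ltf+ Fcnb+, Ltf+ Fcnb-low, monocyte-marker and megakaryocyte/erythroid-marker cells, with the border at 10 UMIs drawn. Late neutrophils are not shown. In Elane+ progenitors 65.1% of control cells and 42.0% of cells labelled Utx-deleted lie at or above the border, and in Ltf+ Fcnb+ cells 48.3% and 47.8%.

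Monocyte-marker cells, gated by F13a1, Ly86 and Csf1r (152 and 472 cells), also had a lower sum in the library labelled Utx-deleted. It was 3438 CPM (hashtags 3588 and 3268) and 2890 CPM (2843 and 2952), a ratio of -0.25 (-0.28 to -0.22), and 31 of 34 genes were below 0 (median -0.22), when 55.6% of all genes were (median -0.03). With hashtag 1 alone 32 of 34 were below 0, and with hashtag 2 alone 23. None passed 1.5-fold, where 2.88% of all genes were called higher and 3.91% lower. The lowest ratios were in Gins1 (46.1 and 31.0 CPM, -0.58), Tyms (125 and 88.1 CPM, -0.51) and Slbp (186 and 140 CPM, -0.40), and the highest in Ccne1 (0.07), Tcf19 (0.07) and Ccne2 (0.05), all 3 with intervals that included 0. Both hashtags were below both control hashtags for 21 of 34 genes, against 29.9% of all genes. Rich cells were 74.5% (111 of 149) and 54.8% (257 of 469) of those deep enough.

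In stem-like cells 26 of 34 genes had ratios below 0 (median -0.11, against -0.00 over all genes), and Cdc45 was the only one of the 34 past 1.5-fold, lower, where 3.54% of all genes were called higher and 6.24% lower. Cdc45 was at 48.5 CPM (47.8 and 49.3) and 31.7 CPM (38.5 and 27.7), a ratio of -0.60 (-0.93 to -0.31) on 105 UMIs in the smaller library. With stage thresholds of 5 or 20 per 10000, or with cells thinned to 2000 UMIs, 0 of the 34 passed 1.5-fold in this stage, and the Cdc45 ratio was -0.29 with hashtag 1 (44 cells in the library labelled Utx-deleted) and -0.81 with hashtag 2 (70 cells). Tyms was at 135 CPM with both hashtags at 135, and 95.1 CPM (96.7 and 94.2), or -0.50 (-0.68 to -0.33), and Uhrf1 at 111 and 87.6 CPM, or -0.34. At the other end E2f8 was at 70.2 CPM (72.4 and 68.1) and 84.6 CPM (76.2 and 89.4), a ratio of 0.27 (0.07 to 0.47), Exo1 at 0.19 and Tcf19 at 0.13, both with intervals that included 0. At 1.25-fold 3 were lower and 0 higher, against 13.9% and 11.3% of all genes. E2f8 thus had opposite signs in stem-like cells and in Elane+ progenitors; the difference between the stages was not tested. Both hashtags were below both control hashtags for 14 of 34 genes and above for 2, against 27.1% and 21.2% of all genes. Rich cells were 58.9% (274 of 465) and 50.9% (58 of 114, interval 41.3 to 60.4%), a difference within the interval of the smaller sample. In megakaryocyte/erythroid-marker cells (205 and 65 cells) the sum was 2958 and 2840 CPM, but the hashtags overlapped (2733 and 3210 against 3162 and 2560, the latter from under 50 cells each), and of the 33 genes with enough UMIs 0 passed 1.5-fold, where 4.64% of all genes were called higher and 5.88% lower. Both hashtags lay below both control hashtags for 5 of the 33 and above for 2, against 29.3% and 20.1% of all genes.

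In Ltf+ Fcnb+ immature neutrophils the rich shares were 48.3% and 47.8%, with hashtags at 48.0% and 48.5% against 51.7% and 42.1%. The mean per thinned cell was 11.0 and 9.87 UMIs of the 34 genes. Of the 34 genes 22 were below 0 (median -0.14, against -0.08 over all genes), and none passed 1.5-fold, where 2.26% of all genes were called higher and 5.75% lower. The lowest ratios were in Cdc45 (76.9 and 57.9 CPM, -0.41), Mcm10 (33.0 and 25.7 CPM, -0.36) and Tyms (117 and 94.0 CPM, -0.31). The highest were in Ccne2 (73.2 and 85.9 CPM, 0.23, 0.08 to 0.38), Cdt1 (34.8 and 39.3 CPM, 0.17) and Rpa2 (28.3 and 31.3 CPM, 0.15), and for all 3 both hashtags lay above both control hashtags, as for 16.3% of all genes. Both hashtags were below both control hashtags for 15 of 34 genes, against 41.3% of all genes. At 1.25-fold 2 were lower (Cdc45 and Mcm10) and 0 higher, where 16.2% of all genes were lower and 7.37% higher.

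In Ltf+ Fcnb-low neutrophils, the largest stage, 11 of 34 genes were below 0 (median 0.07, against -0.04 over all genes). That count rested on cells with both hashtags or neither: with hashtag 1 alone 21 of 34 were below 0, and with hashtag 2 alone 21. None passed 1.5-fold, where 4.29% of all genes were called higher and 6.31% lower. Tyms (55.8 and 47.2 CPM, -0.24), Pcna (87.3 and 76.3 CPM, -0.19) and Uhrf1 (38.2 and 33.5 CPM, -0.19) had the lowest ratios. Gins2 (6.65 and 8.43 CPM, 0.34, 0.11 to 0.58), Ccne2 (21.9 and 25.4 CPM, 0.21) and Chaf1b (5.13 and 5.91 CPM, 0.20, interval including 0) had the highest. The control hashtags of Gins2 were at 5.38 and 6.89 CPM and the others at 5.98 and 9.02, so they overlapped. For 12 of 34 genes, Pcna and Tyms among them, both hashtags were below both control hashtags, and for 3 (Ccne2, Slbp and Prim1) above, against 40.2% and 24.7% of all genes. At 1.25-fold 1 gene, Gins2, was higher and 0 were lower, where 10.7% of all genes were higher and 14.0% lower. In this stage 14.4% of 2851 control cells and 15.7% of 3523 cells of the other library were rich, and most cells carried at most a few of these UMIs: the median was 3 per cell in both. In late neutrophils 18 of 34 genes had enough UMIs; none passed 1.5-fold, where 4.01% of all genes were called higher and 8.84% lower. Mcm4 (7.40 and 10.5 CPM, 0.50), Rrm2 (8.70 and 11.5, 0.40) and Slbp (43.8 and 53.5, 0.29) had the highest ratios there and Rrm1 (-0.43), Mcm5 (-0.41) and Pcna (-0.41) the lowest. Both hashtags were below both control hashtags for 6 of the 18 genes and above for 2, against 36.3% and 23.4% of all genes. At 1.25-fold 5 were lower and 2 higher, against 20.6% and 12.9% of all genes. The Rrm2 hashtags overlapped, at 9.72 and 7.47 against 10.3 and 4.91 CPM.

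Pcna and Tyms had ratios below 0 in each of the 5 stages and in monocyte-marker cells, with intervals below 0 throughout for Pcna and everywhere but in late neutrophils for Tyms. The cyclins E, which activate Cdk2 at S-phase entry, had these levels. Ccne1 was at 10.1 and 9.36 CPM in stem-like cells, 11.1 and 13.2 in Elane+ progenitors, 31.0 and 31.3 in Ltf+ Fcnb+ cells and 9.55 and 10.8 in Ltf+ Fcnb-low cells. Ccne2 was at 29.3 and 30.2, 28.5 and 26.1, 73.2 and 85.9, and 21.9 and 25.4 CPM in the same stages. Both were at their highest in Ltf+ Fcnb+ cells of both libraries. In late neutrophils Ccne1 had 3 and 18 UMIs and Ccne2 15 and 30, too few to compare.

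The genes did not all peak at the same stage. Among the 5 compared neutrophil-lineage stages, in the control library 13 had their highest level in stem-like cells, 12 in Elane+ progenitors and 9 in Ltf+ Fcnb+ cells, and in the other library 18, 5 and 11. Outside these stages some levels were higher still, such as Gins1 at 46.1 CPM in control monocyte-marker cells. The log2 level in stem-like cells minus that in Ltf+ Fcnb+ cells of the control library ran from -2.07 in Rrm2 to 1.55 in Pola1. At the Ltf+ Fcnb+ end were Rrm2 (71.5 CPM in stem-like cells and 299 in Ltf+ Fcnb+ cells), Tcf19 (-1.66), Ccne1 (-1.62), Ccne2 (-1.32), E2f8 (70.2 and 140 CPM), E2f7 (-0.95), Cdc45 (-0.67) and Slbp (-0.56). At the stem-like end were Pola1 (392 and 134 CPM), Gins1 (1.31), Rpa2 (1.27), Mcm3 (1.26) and Chaf1b (1.23). The other library gave -2.09 for Rrm2, -1.74 for Ccne1, -1.51 for Ccne2 and 1.60 for Pola1, so the ends of the order were alike. All 6 G1/S regulators lay on the Ltf+ Fcnb+ side, E2f1 by the least in both libraries (-0.07 and -0.35), and the Mcm subunits on the stem-like side (0.28 to 1.26 in the control library and 0.27 to 1.08 in the other).

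**Figure D4:**
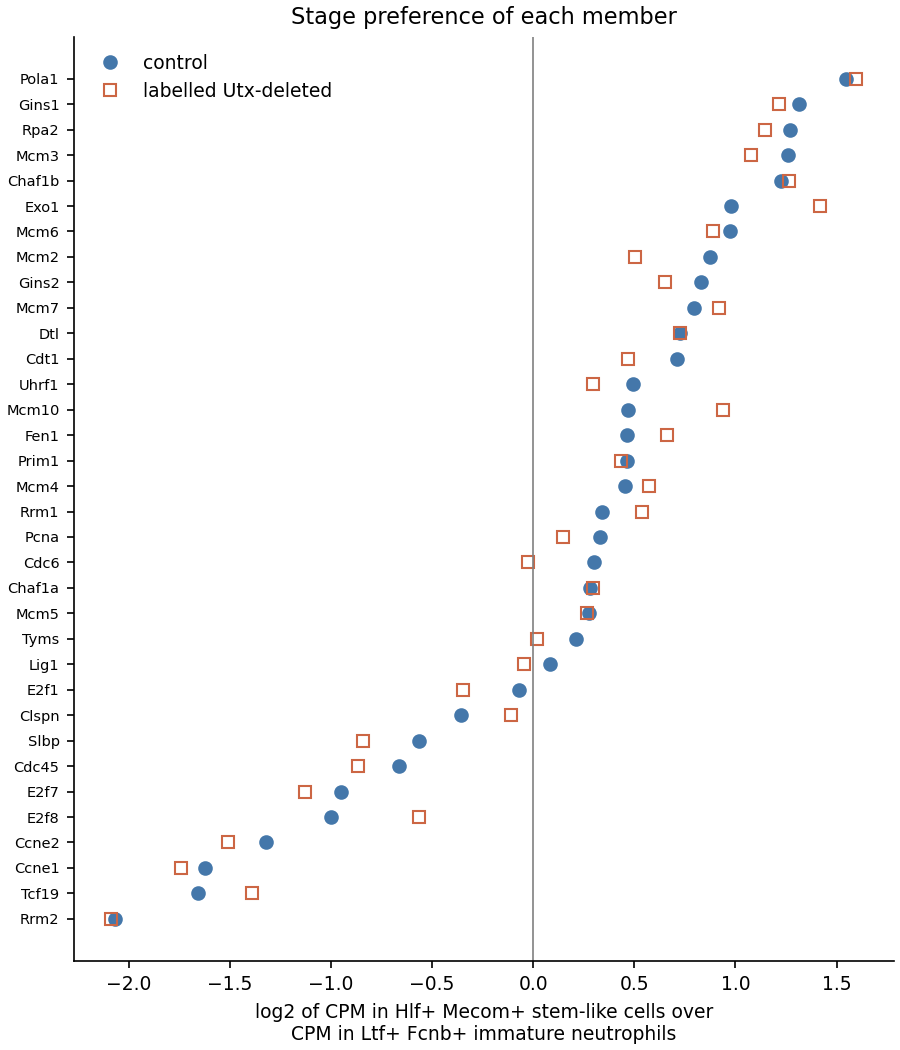
Log2 level in stem-like cells minus log2 level in Ltf+ Fcnb+ immature neutrophils for each of the 34 genes, in both libraries, ordered by the control value. The order runs from Rrm2 (-2.07 and -2.09) to Pola1 (1.55 and 1.60), with Tcf19, the cyclin E genes and E2f8 and E2f7 next to Rrm2.

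Most of the genes were nearly absent from late neutrophils: the control level there was from 1.05% (Ccne1) to 22.1% (E2f1) of each gene's highest stage. Slbp (18.5%) and Cdc45 (13.6%) came next after E2f1. In the other library these 3 kept 22.4% (Slbp), 18.5% (E2f1) and 17.7% (Cdc45). Slbp, at 43.8 and 53.5 CPM, was therefore readily counted in cells where the sum of all 34 genes was near 238 CPM.

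The 34 genes were set beside 22 genes of G2 and mitosis, such as Mki67, Top2a and Ccnb1. That list had summed ratios of 0.04 in stem-like cells, -0.20 in Elane+ progenitors, -0.38 in Ltf+ Fcnb+ cells, -0.23 in Ltf+ Fcnb-low cells and 0.26 in late neutrophils. The stem-like hashtags went opposite ways, at -0.18 and 0.23, with 44 and 70 cells in the library labelled Utx-deleted. In late neutrophils the library totals of that list were 181 and 217 CPM, but its control hashtags were at 171 and 173 CPM and the others at 173 and 112 CPM. The ratios there were 0.02 with hashtag 1 and -0.63 with hashtag 2, so the value of 0.26 rested on cells with both hashtags or neither. Dividing the sum of the 34 genes by that of the G2/M list gave 1.02 and 0.892 in stem-like cells, 1.42 and 1.36 in Elane+ progenitors, 0.629 and 0.759 in Ltf+ Fcnb+ cells, 0.288 and 0.338 in Ltf+ Fcnb-low cells and 1.32 and 1.10 in late neutrophils. The quotient was lowest in Ltf+ Fcnb-low cells among these 5 stages in both libraries. The late value of the library labelled Utx-deleted was 1.02 with hashtag 1 and 2.27 with hashtag 2 (control 1.37 and 1.25), so the late stage could not be ranked against Elane+ progenitors. Among the other 4 stages Elane+ progenitors had the highest quotient. In stem-like cells the nearest hashtags of the libraries almost met (0.918 and 1.14 against 0.906 and 0.885), so no direction is read there. Between the libraries the hashtags were apart in both Ltf+ stages, where the control was lower. They were at 0.636 and 0.630 against 0.897 and 0.675 in Ltf+ Fcnb+ cells, and at 0.271 and 0.297 against 0.314 and 0.318 in Ltf+ Fcnb-low cells. In Elane+ progenitors they overlapped, at 1.49 and 1.38 against 1.34 and 1.38.

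**Figure D5:**
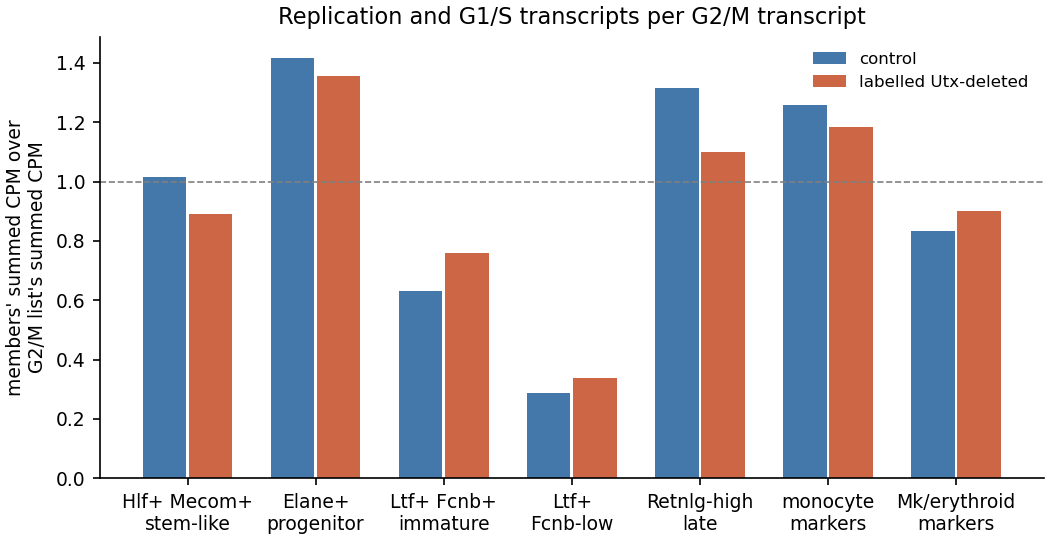
Sum of the 34 genes divided by the sum of 22 G2/M genes in each compared cell group, for both libraries. The quotient is 1.42 and 1.36 in Elane+ progenitors and 0.288 and 0.338 in Ltf+ Fcnb-low neutrophils.

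The rest of the pathway was read from 81 further genes of licensing, firing, polymerases, fork protection, nucleotide supply, chromatin and G1 control. Over all cells 80 of 81 were below 0 (median -0.25), 2 passed 1.5-fold lower and 0 higher, a smaller share than the 10.6% lower of all genes. These were the D-type cyclins Ccnd1 (11.0 and 5.15 CPM, -1.09, -1.23 to -0.94) and Ccnd2 (63.4 and 40.1 CPM, -0.66, -0.72 to -0.61), partners of the kinases that release E2F. Ccnd2 was at -0.86 with hashtag 1 and -0.34 with hashtag 2, and by stage at 0.27 (0.14 to 0.40) in stem-like cells and -0.36 in Elane+ progenitors. In Elane+ progenitors 68 of 81 were below 0 (median -0.18) and 2 passed 1.5-fold, both lower, where 4.19% of all genes were: Ccnd1 (9.10 and 2.82 CPM, -1.67, -2.13 to -1.26) and the activator E2f2 (6.75 and 3.24 CPM, -1.05). Of all genes 54.5% were below 0 there. By list the counts were 7 of 10 in licensing, 8 of 10 in firing, 19 of 22 in polymerases, 7 of 8 in fork protection, 5 of 5 in nucleotide supply, 9 of 9 in chromatin and 13 of 17 in G1 control, with medians from -0.26 (nucleotide supply) to -0.10 (chromatin). E2f2 was also lower in Ltf+ Fcnb+ cells (131 and 84.9 CPM, -0.63), where it was the only 1 of 77 past 1.5-fold lower (5.75% of all genes). Tfdp2, a dimer partner of E2F proteins, had the highest ratio among those with 100 or more UMIs in Elane+ (0.42), Ltf+ Fcnb+ (0.74, past 1.5-fold) and Ltf+ Fcnb-low cells (0.69, past 1.5-fold), at 62.1 and 83.0, 20.5 and 34.3, and 9.35 and 15.1 CPM. It was the only 1 past 1.5-fold higher in each of the Ltf+ stages, where 2.26% and 4.29% of all genes were. In Ltf+ Fcnb-low cells Ccnd1 was past 1.5-fold lower (1.79 and 0.959 CPM, -0.90), at 0.04 with hashtag 1 and -1.21 with hashtag 2, and was the only 1 of 80 (6.31% of all genes). In late neutrophils 2 of 46 were lower and 2 higher, against 8.84% and 4.01% of all genes. Lower were Dck, a deoxynucleoside kinase (39.2 and 15.3 CPM, -1.35), and Dna2, a nuclease of Okazaki fragments (7.29 and 3.70 CPM, -0.97). Higher were the histone chaperone Asf1a (7.51 and 12.4 CPM, 0.71) and Rnaseh2b, a ribonuclease subunit (4.03 and 6.36 CPM, 0.64), the latter short of 1.5-fold with either hashtag alone (0.32 and 0.41). In monocyte-marker cells 3 of 80 were lower, against 3.91% of all genes: Ccnd1 (32.2 and 10.0 CPM, -1.68), E2f2 (21.3 and 13.7 CPM, -0.65) and Ccnd2 (89.2 and 57.5 CPM, -0.64, and -0.67 and -0.46 with each hashtag). In megakaryocyte/erythroid-marker cells Orc5, an origin recognition subunit, was lower (64.1 and 37.3 CPM, -0.77), 1 of 78 (5.88% of all genes). In stem-like cells none of 80 passed 1.5-fold in either direction, where 3.54% of all genes were called higher and 6.24% lower. Of these 80 genes 45 were below 0, and the median over all genes was -0.0045.

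Antibody tags gave a readout that the list did not use. In Ltf+ Fcnb-low cells the Gr1 tag, a surface marker that increases with neutrophil maturation, had a median share of antibody UMIs of 25.4% in rich and 44.7% in other cells of the control library, and of 46.1% and 61.5% in the other library. The CD117 tag was at 1.85% and 1.07%, and at 1.39% and 0.653%. In Ltf+ Fcnb+ cells the Gr1 shares of control cells were 13% and 19.8%, those of the other library 23.7% and 38.1%. Rich cells thus had less Gr1 and, in Ltf+ Fcnb-low cells, more CD117 than other cells of their stage in both libraries. In Elane+ progenitors CD117 was similar in rich and other cells (11.0% and 12.1%, and 16.7% and 17.9%). Gr1 shares also differed between the libraries at each of these stages, so shares are compared within a library only.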

How the data were processed

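The deposited matrices hold raw counts of UMIs per feature and barcode, not normalized, for 32285 genes and 15 antibody tags; per the file headers they were written by Cell Ranger 7.1.0, and per the submitters' processing notes the build was mm10. How cells were called is not given in the sources used here. GENCODE M21, on the same build, held 99.6% of the gene identifiers and gave positions of genes.

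Everything else was computed with Python 3.11.15, scanpy 1.11.5, scipy 1.17.1, numpy 2.4.6, pandas 2.3.3 and matplotlib 3.10.9. Barcodes under 500 genes or at 10% or more mitochondrial UMIs were dropped (349 control and 214 others). Scrublet's automatic threshold marked 0.0267% and 0% of barcodes and had not worked, so the top 6% of scores in each library were left out (469 and 501). Among kept cells 204 and 433 still carried both hashtags (100 or more UMIs of each, neither at 5 times the other or more). Doublet removal may therefore have been incomplete, which was not tested.

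Cells with 10 or more monocyte-marker UMIs per 10000, or 5 or more of another of 6 lineage lists, were set aside. The rest were gated on Retnlg, Ltf, Fcnb and Elane at 10 UMIs per 10000, then on 2 or more UMIs of Hlf with Mecom, of Flt3, or of Cpa3. Stages with 50 or more cells in each library were compared. UMIs were summed per library and stage and expressed per 1000000 gene UMIs (CPM). The log2 ratio had 1 UMI added to each sum. Its interval came from the exact binomial interval of the UMIs of both libraries given their total, without the added UMI. A gene with 100 or more UMIs over both libraries was called past 1.5-fold. The rules were tested on simulated counts.

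The genes, the further lists and the stage markers were chosen with earlier results of these data known. The text names all 34 genes, per stage the 3 highest and 3 lowest ratios, the cyclin E pair and the Mcm ring, and of the further genes those called over all cells; other further genes, and those given for rich cells, by stage of highest level or in late neutrophils were named after their values were seen. The 1.25-fold threshold and the Elane+ cells without F13a1 were added after the data were seen.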

Additional observations from a re-analysis of the deposited data

How the results depend on the processing

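No paired analysis was possible because each group has 1 library. Of the alternative values for the main comparisons, 145 changed little and 78 moved. The cause of a move was not tested. Among called further genes, Ccnd1 in Ltf+ Fcnb-low cells changed sign with hashtag 1 alone, from -0.90 to 0.04. All cells, summed ratio: -0.33 without doublet removal, -0.50 with hashtag 1 alone, -0.21 with hashtag 2 alone, -0.36 thinned to 2000 UMIs, -0.26 without the 50 most abundant genes in the total, -0.32 without Pcna and -0.30 as a median over genes. Stem-like: -0.11 at stage thresholds of 5, -0.058 thinned and -0.11 as a median. Elane+: -0.32 and -0.22 with each hashtag and -0.35 thinned. Ltf+ Fcnb+: -0.14 without barcodes of both hashtags, -0.18 with hashtag 2, -0.15 at 5, -0.16 thinned, -0.022 without abundant genes and -0.14 as a median. Ltf+ Fcnb-low: -0.060 without doublet removal, -0.071 without barcodes of both hashtags, -0.054 and -0.087 with each hashtag, 0.057 at 5, -0.20 at 20, 0.073 without abundant genes and 0.066 as a median. Late neutrophils: 0.22 without doublet removal, -0.40 and 0.23 with each hashtag, 0.22 at 5, -0.094 at 20, -0.33 thinned and 0.12 without abundant genes. At control stage weights: -0.16 without barcodes of both hashtags, -0.18 and -0.15 with each hashtag and -0.21 at 20. Without abundant genes the G2/M list was at -0.29 in Ltf+ Fcnb+, -0.15 in Ltf+ Fcnb-low and 0.38 in late neutrophils.

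Members past 1.5-fold came to 9 over all cells with hashtag 1 alone, 2 thinned and 16 at 1.25-fold. With hashtag 1 alone all 34 ratios over all cells were below 0. Among these alternatives the share of all genes is given, above, for 1.25-fold only, so the other counts of members have no background to be read against. In stem-like cells the count was 0 at stage thresholds of 5 or 20, thinned or at 2-fold, and 3 at 1.25-fold. In Elane+ cells it was 1 with hashtag 2 alone or at 20, 2 thinned and 7 at 1.25-fold. In Ltf+ Fcnb+ cells it was 1 with hashtag 2 and 2 at 1.25-fold, and in Ltf+ Fcnb-low cells 1 at 5 and 1 at 1.25-fold. In late neutrophils it was 2 without doublet removal, 1 without barcodes of both hashtags, 1 and 2 with each hashtag, 3 at 5, 2 at 20, 1 without abundant genes, 3 from 20 UMIs and 7 at 1.25-fold. The further genes gave 1 at 2-fold over all cells, 0 in both Ltf+ stages, and in late neutrophils, from a count of 4, 1 at 2-fold and 14 from 20 UMIs. The share of all genes at these settings is not given, so no result about the further genes is drawn from these counts. The difference in rich share in Elane+ cells was -28.2 points with hashtag 1, -13.7 and -12.4 points at 5 and 15 of 4000, and -15.7 points at 5 of 2000, below 0 in each. In Ltf+ Fcnb-low cells it was -1.76 points at stage thresholds of 20 and -0.619 points at 15 of 4000, and in late neutrophils 0.687 points without doublet removal. With under 50 cells in a library, stem-like cells with hashtag 1 alone, megakaryocyte/erythroid-marker cells with either hashtag and Ltf+ Fcnb+ cells at thresholds of 20 were not run as alternatives. Late neutrophils, with few of these UMIs, limit what can be read there.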

Other observations

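The 3 stages that were too small to compare gave these values. Fcnb+ pre-neutrophils, between Elane+ progenitors and Ltf+ cells, had the highest sum of the 34 genes of any stage of the control library, 3718 CPM in 74 cells with hashtags at 3887 and 3542 CPM, and 76.7% of 73 cells were rich (exact binomial interval 65.4 to 85.8%). Rrm2 was at 375 CPM and Pcna at 304 CPM there. The library labelled Utx-deleted held 9 such cells, at 2859 CPM. Flt3+ progenitors were at 3370 CPM in 38 cells and 3882 CPM in 7 cells. Cpa3+ early myeloid progenitors were at 1936 CPM in 71 cells and 2207 CPM in 37 cells, with 28.2% of 71 and 24.3% of 37 rich, below the 58.9% of control stem-like cells. No ratio is drawn from these cells.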
